A study of Mus musculus with 19 samples.

Results

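The genes of the insulin-like growth factor (IGF) axis described here are the ligands Igf1 and Igf2, the receptors Igf1r and Igf2r, and the binding proteins Igfbp3, Igfbp4, Igfbp5, Igfbp6 and Igfbp7. They are 9 of the 10733 genes tested in the left ventricle of mice whose aorta had been narrowed by a band or that had undergone sham surgery. Members were taken by gene symbol: a probe set counted where the platform annotation paired it with exactly 1 of these symbols, which gave 27 probe sets, and the brightest probe set of a gene, by its mean on the 19 arrays, stood for it. All 9 genes passed the filter on low values, a log2 signal above 4 on at least 5 arrays, as did 24 of the 27 probe sets; the other 3 were never above it. The groups were 7 C57BL/6 males with aortic banding (AB) and heart failure (HF mice), 7 with AB and no heart failure (no-HF mice), and 5 sham-operated C57BL/6 males. Every mouse was operated on at 7 weeks of age, its ventricle was collected 4 weeks later without the atria and right ventricle, and each mouse gave 1 Affymetrix array. No allele or drug is named for any group, and the labels do not say what defined heart failure. Left ventricular weight over tibia length, in the units of the labels, was 8.09 to 9.75 in HF mice, 6.42 to 7.59 in no-HF mice and 4.82 to 5.47 in sham mice. Lung weight over tibia length was 17.92 to 24.62 in HF mice, 8.52 to 10.83 in no-HF mice and 8.2 to 9.38 in sham mice.

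IGF1 and IGF2 are secreted peptides that activate the IGF1 receptor, a tyrosine kinase that signals through insulin receptor substrates, PI3K and AKT and is known in the heart for driving growth and survival of muscle cells. The IGF2 receptor, also the cation-independent mannose 6-phosphate receptor, takes up IGF2 and delivers it to lysosomes. Binding proteins hold the ligands in the blood and in the matrix between cells, and proteases release the ligands again.

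Values are log2 signals, so a difference of 1 is a factor of 2, and a level is comparable between mice but not between genes. All 8 heart muscle markers checked were measured, and their summed log2 signal was 18.43 to 18.51 in HF mice, 18.45 to 18.54 in no-HF mice and 18.49 to 18.58 in sham mice. Of these, 4 (Myh6, Pln, Ryr2 and Tnni3) were lower in HF than in sham mice, with log2 differences of -0.15, -0.17, -0.23 and -0.27. Tnni3 was also lower in HF than in no-HF mice (-0.18, limma adjusted p = 0.0182), and 0 of the 8 passed between no-HF and sham mice (1 at an unadjusted p under 0.05). Some arrays stood apart from their group. A control for 18S ribosomal RNA was high on the arrays of no-HF mice 5 to 7 and sham mice 1 to 3 and low on all others. This split was made here at the largest gap between arrays. These 6 mice belong to the first of 3 series, a grouping made here from the animal ID numbers, since the labels name no batch. That series also holds HF mice 1 and 2, on low-18S arrays. Within it, a difference of HF mice from no-HF or sham mice cannot be told apart from the array set. For no-HF against sham, the low-18S arrays and series 2 and 3 hold the same mice. For actin, a control of RNA quality, the 3′ minus 5′ difference was 0.661 to 0.905 in HF mice and 0.672 to 0.898 in no-HF mice, against 0.943 to 1.02 in sham mice. Sham mouse 3 had the highest summed signal of 13 macrophage and leukocyte markers of all 19 arrays, 14.43 on the log2 scale, against 13.18 to 13.78 in the other sham mice.

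In HF mice 7 of the 9 genes rose against sham, 1 fell (Igf2) and 1 (Igf1r) did not pass the test, by limma with Benjamini-Hochberg adjustment over all 10733 genes and a threshold of 0.05. Over all genes tested 39.3% passed in this comparison, 20.4% higher and 18.9% lower. The median difference of the 9 genes was 0.77 on the log2 scale, against 0.01 over all genes. In no-HF mice 2 of the 9 rose against sham (Igf2r and Igfbp7) and 0 fell, where 17.4% of all genes passed, 10.8% higher and 6.53% lower; 5 of the 9 had an unadjusted limma p under 0.05. The median difference of the 9 was 0.39, against 0.02 over all genes. Between the banded groups 3 of the 9 were higher in HF mice (Igfbp3, Igfbp6 and Igfbp7), and 0 were lower, where 9.48% of all genes passed, 3.83% higher and 5.65% lower. Here the median difference was 0.38, against -0.01 over all genes. Both comparisons with sham share the 5 sham mice. In whole tissue, fewer cells of a type and less RNA per cell cannot be told apart.

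**Figure D1:**
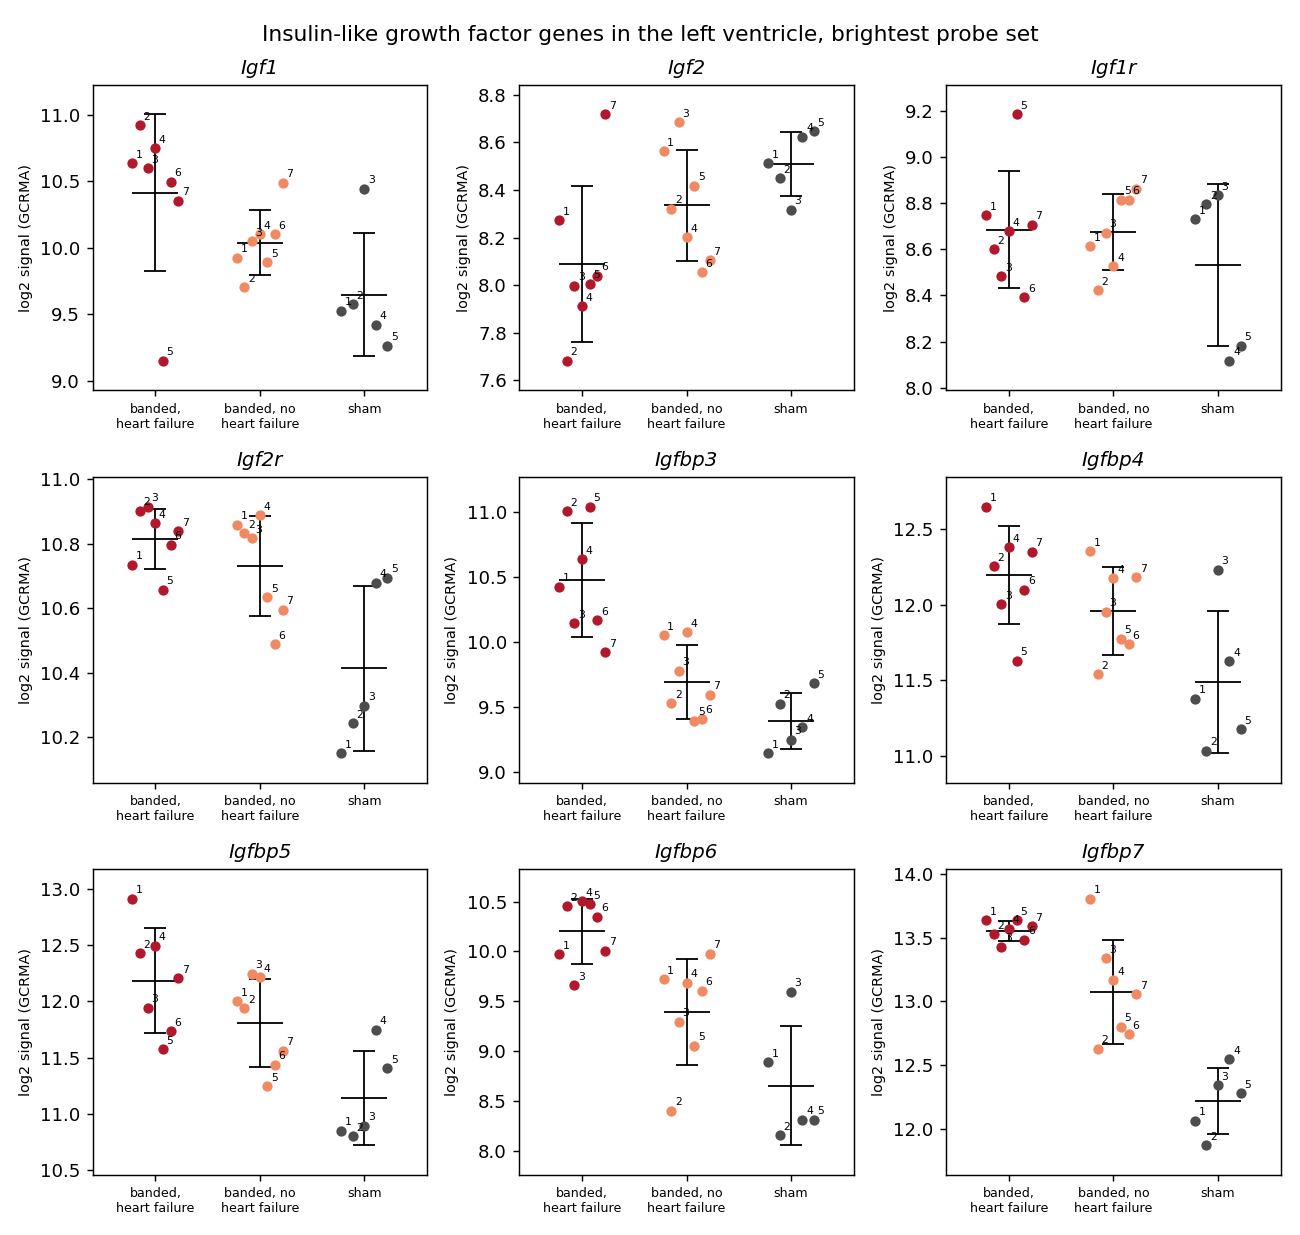
Log2 signal of the 9 genes in each mouse, from left to right in each panel banded mice with heart failure (7), banded mice without (7) and sham mice (5); numbers name the mouse, the long bar is the group mean and the whiskers are 1 SD. Axes do not start at 0 and differ between panels. In Igfbp3, Igfbp6 and Igfbp7 every HF mouse lay above every sham mouse, as in 8.5% of all genes tested (9.06% had every HF mouse below).

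**Figure D2:**
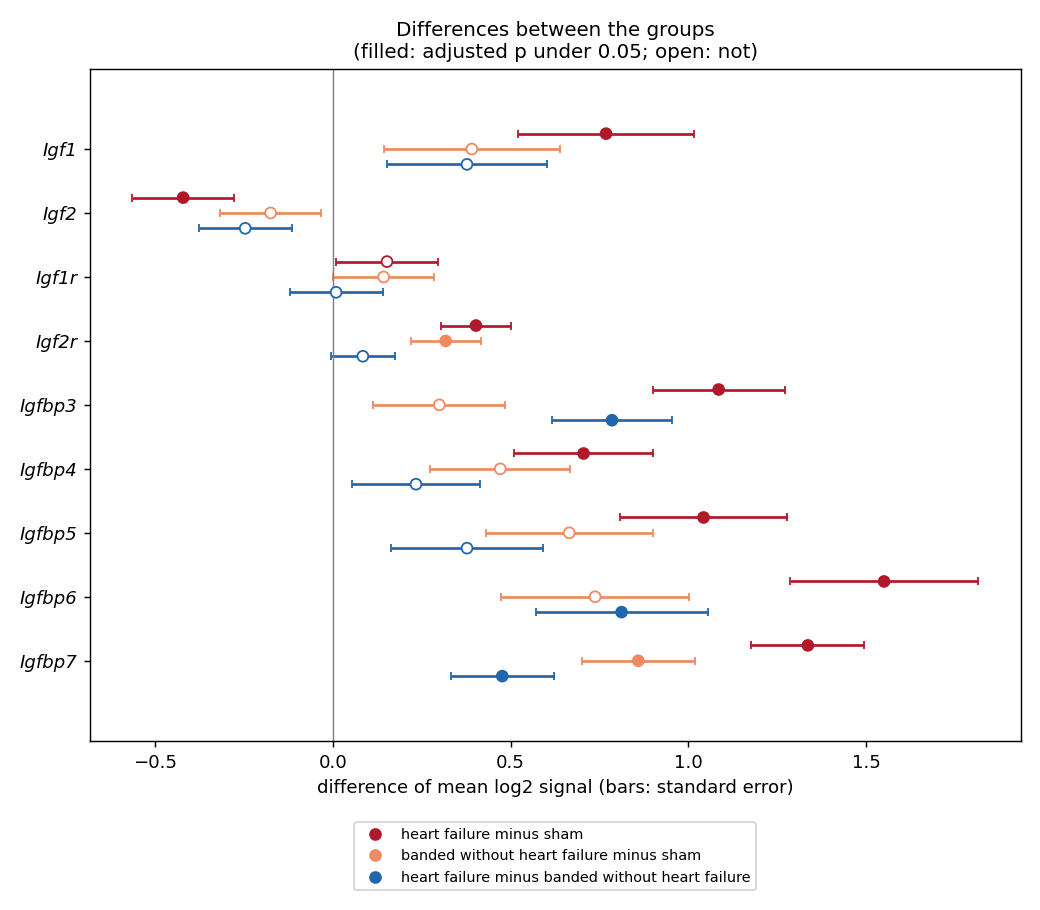
Difference of mean log2 signal for each gene, HF minus sham in red, no-HF minus sham in orange and HF minus no-HF in blue, with the standard error of the limma fit; filled points have an adjusted p under 0.05. The values ran from -0.42 (Igf2, HF minus sham) to 1.55 (Igfbp6, HF minus sham).

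Of the ligands, Igf1 rose and Igf2 fell in HF mice. Igf1, made in the liver under growth hormone and also by cells within the heart, had a log2 signal of 9.15 at the lowest, 10.60 at the median and 10.92 at the highest in HF mice. It was 9.71, 10.05 and 10.49 by the same measures in no-HF mice. In sham mice 1 to 5 it was 9.53, 9.58, 10.44, 9.42 and 9.27. Of the 7 HF mice, 5 lay above every sham mouse, while HF mouse 5, at 9.15, lay below every other mouse and sham mouse 3 lay among the banded mice. The difference between HF and sham mice was 0.77 ± 0.25 (SE), or 1.70-fold (limma adjusted p = 0.0194). Neither no-HF against sham (0.39 ± 0.25, adjusted p = 0.294) nor HF against no-HF (0.38 ± 0.23, adjusted p = 0.305) passed. The 3 other Igf1 probe sets gave 0.90, 0.71 and 0.62 for HF against sham, of which the last missed the threshold when adjusted over all probe sets (adjusted p = 0.051).

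HF mouse 5 and sham mouse 3 set how far apart the groups stood for Igf1. Without HF mouse 5 the difference from sham was 0.98 (adjusted p = 0.000255) and the difference from no-HF mice, 0.59, passed the threshold (adjusted p = 0.0281). Without both mice, HF against sham gave 1.18 (adjusted p = 3.88e-06), no-HF against sham 0.59 (adjusted p = 0.00422) and HF against no-HF 0.59 (adjusted p = 0.00536). This pair was picked after its Igf1 values were seen, as the lowest HF mouse and the highest sham mouse. Leaving it out could only widen these differences, so these p-values describe its weight and do not test the groups. Without sham mouse 5, HF against sham was 0.67 and missed the threshold (adjusted p = 0.0518), as it did within animal ID series 2 and 3 (0.93, adjusted p = 0.0916). With the actin difference as a covariate, HF against sham was 1.49 (adjusted p = 0.000634) and no-HF against sham 1.12 (adjusted p = 0.0126). Sham mouse 3, which had the most macrophage marker signal, also had the highest Igfbp4 and Igfbp6 of the sham mice; the part of these cells in its values was not tested.

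Igf2, the ligand of fetal growth that in the mouse is expressed mainly from the paternal allele, was 7.68 at the lowest, 8.01 at the median and 8.72 at the highest in HF mice, and 8.06, 8.32 and 8.68 in no-HF mice. Sham mice 1 to 5 had 8.51, 8.45, 8.32, 8.62 and 8.65. Of the HF mice 6 lay below every sham mouse and HF mouse 7 above all of them, and of the no-HF mice 3 lay below every sham mouse. The difference between HF and sham mice was -0.42 ± 0.14, or 1.34-fold lower (limma adjusted p = 0.0257). That between no-HF and sham mice was -0.17 ± 0.14 (adjusted p = 0.429), and that between HF and no-HF mice was -0.25 ± 0.13 (adjusted p = 0.244). The call was lost without HF mouse 2, sham mouse 4 or sham mouse 5 (adjusted p up to 0.0572), and within either part of the animal ID series (-0.45, adjusted p = 0.0913, in series 1 and -0.50, adjusted p = 0.118, in series 2 and 3). It was also lost with no filter on low values (adjusted p = 0.0521) and on the low-18S arrays alone (-0.55, adjusted p = 0.0747). The second Igf2 probe set lay at the floor of 2.19 on all 19 arrays.

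The receptor genes gave readings that depended on the probe set. For Igf1r, the brightest probe set (1452982_at) had 8.39 at the lowest, 8.68 at the median and 9.18 at the highest in HF mice and 8.42, 8.67 and 8.86 in no-HF mice, against 8.73, 8.80, 8.83, 8.12 and 8.18 in sham mice 1 to 5. Sham mice 4 and 5, on low-18S arrays, lay below every banded mouse, while sham mice 1 to 3, on high-18S arrays, lay among them. The difference was 0.15 between HF and sham mice (95% interval -0.15 to 0.45, limma adjusted p = 0.419), 0.14 between no-HF and sham mice (-0.16 to 0.44, adjusted p = 0.524) and 0.01 between HF and no-HF mice (-0.26 to 0.28, adjusted p = 0.973). With the 18S array set as a block, HF against sham was 0.41 and passed (adjusted p = 0.017), and on the low-18S arrays alone it was 0.54 (adjusted p = 0.0256), whereas in animal ID series 1 alone it was -0.11 (adjusted p = 0.241).

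Igf1r probe set 1428967_at, annotated to the same source sequence as the brightest one, had 6.70 at the lowest, 6.99 at the median and 7.84 at the highest in HF mice and 6.79, 7.04 and 7.39 in no-HF mice. In sham mice 1 to 5 it had 5.20, 5.51, 5.60, 6.11 and 5.34, so all 14 banded mice lay above every sham mouse. Among all genes tested, by their brightest probe sets, 8.5% had every HF mouse and 4.63% every no-HF mouse above the sham mice, and 9.06% and 3.04% had them below. It was 2.94-fold higher in HF mice (1.55 ± 0.19, limma adjusted p over all probe sets = 6.19e-06) and 2.85-fold higher in no-HF mice (1.51 ± 0.19, adjusted p = 5.85e-05) than in sham mice. Probe set 1426565_at also put every banded mouse above every sham mouse, 7.79 to 8.90 in HF mice and 7.997 to 8.39 in no-HF mice, against 7.44 to 7.62 in sham mice. Its differences were 0.81 (adjusted p = 0.000166) and 0.69 (adjusted p = 0.0025). The dim probe set 1452108_at gave 0.20 (adjusted p = 0.164) and 0.12 (adjusted p = 0.497), and 1446303_at was never above the filter. None of the 4 measured probe sets passed the test between HF and no-HF mice. The mean of all Igf1r probe sets was higher than in sham by 0.54 in HF mice (adjusted p = 6.5e-05) and by 0.49 in no-HF mice (adjusted p = 0.000678).

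Igf2r, which in the mouse is expressed mainly from the maternal allele, was 10.66 at the lowest, 10.84 at the median and 10.91 at the highest in HF mice and 10.49, 10.82 and 10.89 in no-HF mice, against 10.15, 10.24, 10.30, 10.68 and 10.69 in sham mice 1 to 5. Of the HF mice 6 lay above every sham mouse, and of the no-HF mice 4. The probe set was higher by 0.40 ± 0.10 in HF mice (1.32-fold, limma adjusted p = 0.00332) and by 0.32 ± 0.10 in no-HF mice (1.25-fold, adjusted p = 0.0326) than in sham mice. The difference between HF and no-HF mice was 0.08 (95% interval -0.10 to 0.27, adjusted p = 0.591). Here sham mice 1 to 3, on the high-18S arrays, were the low ones: within animal ID series 1 the difference between HF and sham mice was 0.59 (adjusted p = 0.00202), and on the low-18S arrays it was 0.13 (adjusted p = 0.226). Within series 2 and 3 it was also 0.13 (adjusted p = 0.287). The actin difference, which separated the sham mice from the banded mice, ended both calls as a covariate (0.29, adjusted p = 0.134, for HF and 0.20, adjusted p = 0.36, for no-HF against sham). The call for no-HF mice was lost in 7 of 19 fits that left out 1 mouse and in 7 of 14 other alternatives, among them no filter (adjusted p = 0.0557) and the mean of all its probe sets (0.21, adjusted p = 0.0507). The low-18S arrays and series 2 and 3, both among the 7, hold the same no-HF and sham mice. The second Igf2r probe set gave 0.11 (adjusted p = 0.224) for HF and 0.10 (adjusted p = 0.39) for no-HF mice against sham.

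**Figure D3:**
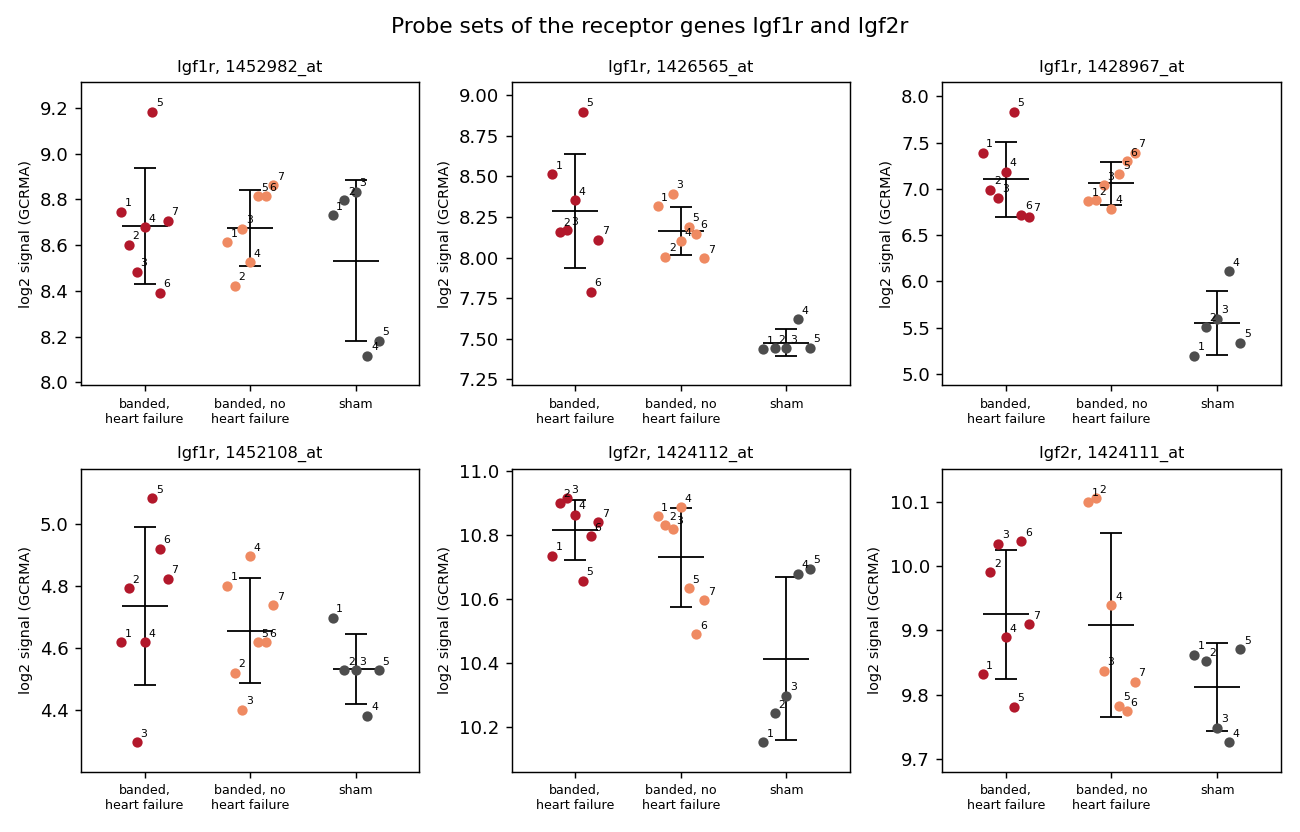
Log2 signal of the 4 Igf1r and 2 Igf2r probe sets that passed the filter, in banded mice with heart failure, banded mice without and sham mice; numbers name the mouse, the long bar is the group mean and the whiskers are 1 SD. In 1426565_at and 1428967_at all banded mice lay above the sham mice, while in 1452982_at sham mice 1 to 3 lay among them; axes do not start at 0.

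All 5 binding protein genes rose in HF mice against sham. Their promoters are shown because these genes rose in the same comparison. Each line gives the 150 bases before the RefSeq start of the gene (GRCm38.p6), 5′ to 3′ on the strand of the gene. Capitals mark TATAAA (the TATA box), CCAAT (the CCAAT box) or GGGCGG (the GC box) on either strand; TTTATA is TATAAA and CCGCCC is GGGCGG read on the opposite strand, and no match overlapped another.
Igfbp3 (chr11:7213924-7214073, minus strand): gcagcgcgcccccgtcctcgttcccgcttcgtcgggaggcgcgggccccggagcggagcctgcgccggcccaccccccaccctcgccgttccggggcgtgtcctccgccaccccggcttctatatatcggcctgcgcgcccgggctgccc
Igfbp4 (chr11:99041094-99041243, plus strand): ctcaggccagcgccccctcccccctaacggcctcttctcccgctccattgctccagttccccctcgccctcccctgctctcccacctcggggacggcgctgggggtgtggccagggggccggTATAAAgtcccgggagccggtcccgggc
Igfbp5 (chr1:72874866-72875015, minus strand): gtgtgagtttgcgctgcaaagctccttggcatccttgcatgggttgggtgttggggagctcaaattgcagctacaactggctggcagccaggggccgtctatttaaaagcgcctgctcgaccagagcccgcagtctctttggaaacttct
Igfbp6 (chr15:102144036-102144185, plus strand): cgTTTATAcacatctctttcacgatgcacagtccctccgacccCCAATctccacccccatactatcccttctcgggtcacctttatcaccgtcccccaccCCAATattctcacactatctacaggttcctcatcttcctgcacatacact
Igfbp7 (chr5:77408046-77408195, minus strand): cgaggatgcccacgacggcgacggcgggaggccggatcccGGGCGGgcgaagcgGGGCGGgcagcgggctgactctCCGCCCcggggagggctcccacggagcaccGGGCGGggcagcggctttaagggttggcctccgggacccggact
The Igfbp4 window held TATAAA 28 bases before the start, and the Igfbp6 window held it on the opposite strand 148 bases before, beside CCAAT at 107 and 50 bases. GGGCGG occurred 4 times in the Igfbp7 window, at 110, 96 and 44 bases on the strand of the gene and at 74 bases on the other. Neither the Igfbp3 nor the Igfbp5 window held an exact match to these motifs. Near matches were not searched for, and the Igfbp3 window holds tatatat and the Igfbp5 window tatttaaa. Over 32851 mouse promoter windows of the same length, 7.57% held TATAAA, 24.5% CCAAT and 28.6% GGGCGG. G and C made up 78.7% of the Igfbp3 window, 73.3% of Igfbp4, 55.3% of Igfbp5, 50.7% of Igfbp6 and 78.0% of Igfbp7, against a median of 54% over all windows. These matches are descriptions of letters and not of bound sites.

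Igfbp3, which in blood carries most of the IGF in a complex with the acid-labile subunit, was 9.92 at the lowest, 10.42 at the median and 11.04 at the highest in HF mice and 9.40, 9.59 and 10.08 in no-HF mice. Sham mice 1 to 5 had 9.15, 9.53, 9.25, 9.35 and 9.68. All 7 HF mice lay above every sham mouse, as in 8.5% of all genes tested (9.06% had every HF mouse below). Of the 7, 6 lay above every no-HF mouse. It was 2.12-fold higher in HF than in sham mice (1.09 ± 0.19, limma adjusted p = 0.000167) and 1.72-fold higher than in no-HF mice (0.79 ± 0.17, adjusted p = 0.0084). The difference between no-HF and sham mice was 0.30 ± 0.19 (95% interval -0.09 to 0.69, adjusted p = 0.284). A second probe set gave 1.11 (adjusted p = 0.000374), 0.71 (adjusted p = 0.03) and 0.40 (adjusted p = 0.194) in the same order. Within animal ID series 1 the difference between HF and no-HF mice was 1.25 (adjusted p = 0.00668), and within series 2 and 3 it was 0.52 (adjusted p = 0.338). On the low-18S arrays that difference was 0.62 (adjusted p = 0.145). HF against sham gave 0.87 within series 2 and 3 (adjusted p = 0.0508).

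Igfbp4, which holds IGF away from its receptor until the protease PAPP-A cleaves it, was 11.63 at the lowest, 12.26 at the median and 12.65 at the highest in HF mice and 11.54, 11.95 and 12.35 in no-HF mice. In sham mice 1 to 5 it was 11.38, 11.03, 12.23, 11.63 and 11.18. The overlap came from sham mouse 3 alone, which lay above HF mice 3, 5 and 6, while all HF mice lay above the other sham mice. The difference between HF and sham mice was 0.71 ± 0.20, or 1.63-fold (limma adjusted p = 0.0082), and all 6 probe sets passed, with 0.65 to 1.05. The call was lost within animal ID series 1 (0.90, adjusted p = 0.0675) and within series 2 and 3 (0.69, adjusted p = 0.0762). No-HF against sham gave 0.47 ± 0.20 (adjusted p = 0.106), and without sham mouse 3 it was 0.66 and passed (adjusted p = 0.0195). HF against no-HF gave 0.23 ± 0.18 (95% interval -0.14 to 0.61, adjusted p = 0.433).

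Igfbp5, a binding protein that also attaches to extracellular matrix, was 11.57 at the lowest, 12.21 at the median and 12.91 at the highest in HF mice and 11.24, 11.94 and 12.25 in no-HF mice. Sham mice 1 to 5 had 10.85, 10.80, 10.90, 11.75 and 11.41. Sham mice 4 and 5, on low-18S arrays, lay within the range of the banded mice, and 5 of the 7 HF mice lay above every sham mouse. It was 2.06-fold higher in HF than in sham mice (1.04 ± 0.23, limma adjusted p = 0.00178). No-HF against sham gave 0.67 ± 0.23 (adjusted p = 0.0578) and HF against no-HF 0.38 ± 0.21 (adjusted p = 0.279). Within animal ID series 1, HF against sham was 1.82 (adjusted p = 0.000385) and HF against no-HF 1.25 (adjusted p = 0.00394). There the HF mice were on low-18S arrays and the others on high-18S arrays, so group and array set cannot be told apart. Within series 2 and 3 the same differences were 0.41 (adjusted p = 0.226) and -0.11 (adjusted p = 0.846), and on the low-18S arrays HF against sham was 0.61 (adjusted p = 0.131). A dim second probe set gave 1.25 (adjusted p = 0.00926) for HF and 1.16 (adjusted p = 0.0317) for no-HF against sham mice.

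Igfbp6, whose protein prefers IGF2 over IGF1, was 9.66 at the lowest, 10.35 at the median and 10.50 at the highest in HF mice and 8.40, 9.61 and 9.98 in no-HF mice. In sham mice 1 to 5 it was 8.89, 8.15, 9.60, 8.31 and 8.31. Every HF mouse lay above every sham mouse, as in 8.5% of all genes tested (9.06% had every HF mouse below). Of the 7 HF mice, 5 lay above every no-HF mouse. Its 2.93-fold rise in HF over sham mice was the largest of the 9 genes by their brightest probe sets (1.55 ± 0.26, limma adjusted p = 0.000166). HF against no-HF gave 0.81 ± 0.24, or 1.76-fold (adjusted p = 0.0417), a call lost in 10 of 19 fits that left out 1 mouse (adjusted p up to 0.0961). No-HF against sham gave 0.74 ± 0.26 (adjusted p = 0.0617) and passed without sham mouse 3, at 0.97 (adjusted p = 0.0131).

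Igfbp7, a secreted protein of vessel walls with low affinity for IGF, rose in both banded groups. It was 13.43 at the lowest, 13.57 at the median and 13.64 at the highest in HF mice and 12.63, 13.06 and 13.81 in no-HF mice. The values of sham mice 1 to 5 were 12.06, 11.87, 12.34, 12.55 and 12.28. All banded mice lay above every sham mouse. Of all genes tested, 8.5% had every HF mouse and 4.63% every no-HF mouse above the sham mice (9.06% and 3.04% below). The HF mice lay close together (SD 0.08), below no-HF mouse 1 and above the other no-HF mice. It was 2.52-fold higher in HF than in sham mice (1.34 ± 0.16, limma adjusted p = 3.74e-06) and 1.81-fold higher in no-HF than in sham mice (0.86 ± 0.16, adjusted p = 0.00126). The call for no-HF mice was lost on the low-18S arrays (0.82, adjusted p = 0.065), within animal ID series 2 and 3 (0.82, adjusted p = 0.105) and with the actin difference as a covariate (0.53, adjusted p = 0.0991). The low-18S arrays and series 2 and 3 hold the same no-HF and sham mice, so these are not separate checks. HF against no-HF gave 0.48 ± 0.15, or 1.39-fold (adjusted p = 0.0457), a call lost in 14 of 19 fits that left out 1 mouse (adjusted p up to 0.107). In a second probe set every HF mouse, at 8.27 to 8.75, lay above every no-HF mouse, at 7.31 to 8.26, as 0.839% of all genes did at their brightest probe set (1.8% had every HF mouse below). That probe set differed by 0.75 between the banded groups (adjusted p = 0.00544), by 1.19 between HF and sham mice (adjusted p = 7.56e-06) and by 0.44 between no-HF and sham mice (adjusted p = 0.0505). One more lay at the floor on all arrays.

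**Figure D4:**
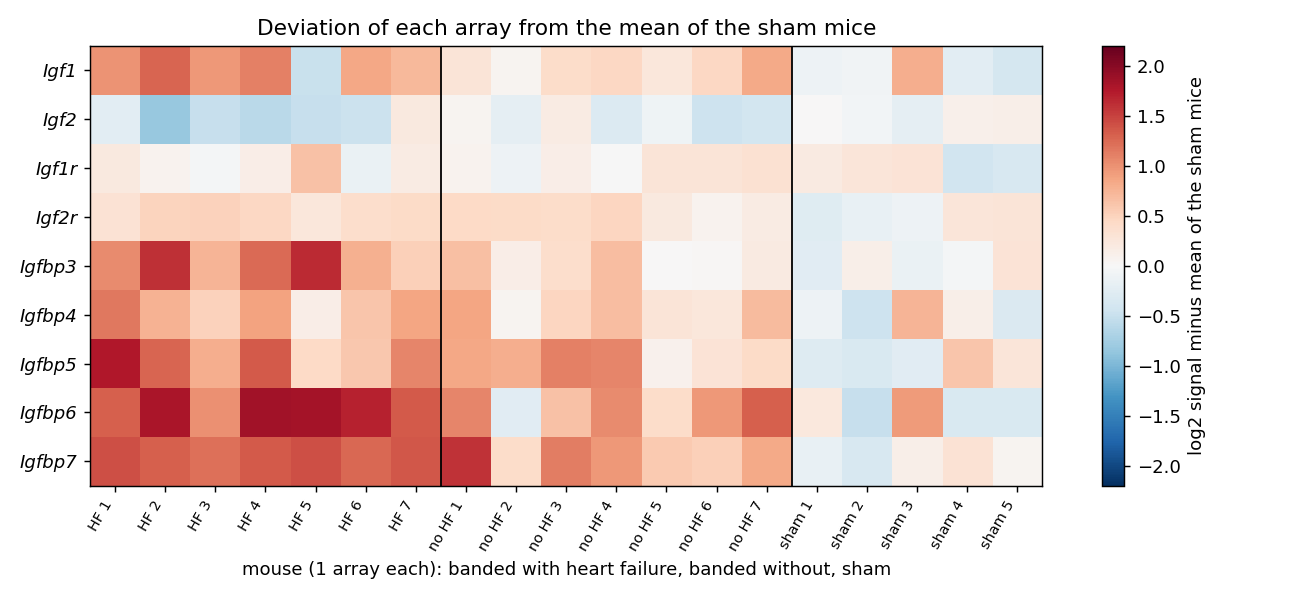
Log2 signal of each gene (rows) in each mouse (columns) minus the mean of the sham mice, on a colour scale from blue (lower) through white to red (higher); black lines separate the HF mice, the no-HF mice and the sham mice. HF mouse 5 lay below the sham mean for Igf1 and above it for Igfbp3 and Igfbp6, and sham mouse 3 lay above it for Igf1, Igfbp4 and Igfbp6.

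Igfbp3 and Igfbp5 each lie beside a related gene that did not pass the filter. In the RefSeq gene table (GRCm38.p6) Igfbp3 neighbours Igfbp1 on chromosome 11 and Igfbp5 neighbours Igfbp2 on chromosome 1, with 0 protein-coding genes between them. Igfbp1 lay at the floor of 2.19 on every array, as did Ins2, an insulin gene. Igfbp2 was 2.42 to 6.13 in HF mice, 2.50 to 5.61 in no-HF mice and 2.50 to 2.58 in sham mice. Of the other ligand and binding protein genes only Igfals, for the acid-labile subunit, was tested, with -0.50 in HF mice (limma adjusted p = 0.0861) and -0.39 in no-HF mice (adjusted p = 0.245) against sham.

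The arrays also measured other genes of the axis, read here from lists. For comparison with their counts, 39.3% of all genes passed for HF against sham, 20.4% higher and 18.9% lower. For no-HF against sham 17.4% passed, 10.8% higher and 6.53% lower, and between HF and no-HF mice 9.48% passed. Of 4 tested genes for proteases of binding proteins and their inhibitors, 2 rose and 1 fell in HF against sham mice. Stc1, whose human protein inhibits PAPP-A, was 5.82 to 8.06 in HF mice against 5.14 to 6.02 in sham mice (2.07-fold higher, limma adjusted p = 0.0136). The related gene Stc2 gave -0.33 (adjusted p = 0.122). Pappa, the gene of PAPP-A, did not pass the filter (4.82 on its highest array), nor did Pappa2 (2.22). Htra3, a secreted serine protease, was 1.55-fold higher in HF mice (adjusted p = 0.000517) and 1.38-fold higher in no-HF mice (adjusted p = 0.0134) than in sham mice. These are log2 differences of 0.63 and 0.47, while another Htra3 probe set gave 0.39 and 0.1. The related protease gene Htra1, whose human protein cleaves binding proteins, was lower by a log2 difference of -0.61 in HF mice (adjusted p = 1.48e-05) and -0.45 in no-HF mice (adjusted p = 0.00126).

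Of the 6 tested genes of the growth hormone receptor axis, which drives Igf1 in liver, 0 rose and 4 fell in HF mice against sham, with a median of -0.46, and 0 rose and 3 fell in no-HF mice, with a median of -0.32. Ghr, the growth hormone receptor, was 11.53 to 11.78 in HF mice and 11.76 to 12.13 in no-HF mice, against 12.10 to 12.68 in sham mice. Its 3 probe sets gave -0.73, -0.73 and -0.72 for HF against sham, the brightest with a limma adjusted p of 5.83e-06, and that of no-HF against sham was -0.47 (adjusted p = 0.00156). Cish, a feedback inhibitor downstream of the receptor, was lower by -0.68 in HF mice (adjusted p = 0.026) and -0.74 in no-HF mice (adjusted p = 0.0356). None of the 6 passed between HF and no-HF mice by limma, where 2 had an unadjusted p under 0.05.

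Among 9 tested genes of the insulin receptor and its adaptors, 3 rose and 3 fell in HF mice and 2 rose and 3 fell in no-HF mice against sham. Those that fell were Grb14, Grb2 and Sos2 in both groups. By its brightest probe set Grb14 gave -0.49 in HF mice (limma adjusted p = 0.000661) and -0.29 in no-HF mice (adjusted p = 0.0438). Grb10, an adaptor that dampens signalling of the insulin and IGF1 receptors, was 1.48-fold higher in HF mice (0.57, limma adjusted p = 1.97e-05) and 1.39-fold higher in no-HF mice (0.48, adjusted p = 0.000514), while its other probe sets gave 1.17 and -0.10 for HF mice and 0.87 and -0.14 for no-HF mice. Irs2, a docking protein of both receptors, was 4.80 to 6.98 in HF mice against 3.09 to 5.66 in sham mice, whose range reaches below the filter (adjusted p = 0.0115). Shc1, another adaptor, was higher by 0.39 in HF mice (adjusted p = 0.0221) and by 0.48 in no-HF mice (adjusted p = 0.0146) than in sham mice.

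Further down the pathway, of 11 tested PI3K and AKT genes, 2 rose and 2 fell in HF mice against sham, where 39.3% of all genes passed. Pik3ca, a catalytic subunit of PI3K, had 0.64 by its brightest probe set (limma adjusted p = 0.0365) and -0.07 to 0.29 by its 4 others, and Pik3r3, a regulatory subunit, had 0.51 (adjusted p = 0.000425). In no-HF mice 0 of the 11 passed and 1 had an unadjusted p under 0.05, where 17.4% of all genes passed. Of 13 tested genes of mTORC1 and translation, Akt1s1, an mTORC1 inhibitor, rose in HF (0.28, adjusted p = 0.0135) and no-HF mice (0.27, adjusted p = 0.0376), and the cap-binding Eif4e fell by 0.22 in HF mice (adjusted p = 0.0174). Of 7 FoxO and GSK3 genes, 0 passed in HF mice (1 at an unadjusted p under 0.05), and Gsk3b had 0.39 in no-HF mice (adjusted p = 0.0146) with 0.08, 0.29 and 0.02 in its other probe sets. Between HF and no-HF mice the lists held 2 calls by limma, Phlpp1, a phosphatase of AKT, at -0.17 (adjusted p = 0.0457) and the ribosomal protein gene Rps6 at 0.20 (adjusted p = 0.0486). Over all genes tested 9.48% passed in that comparison.

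**Figure D5:**
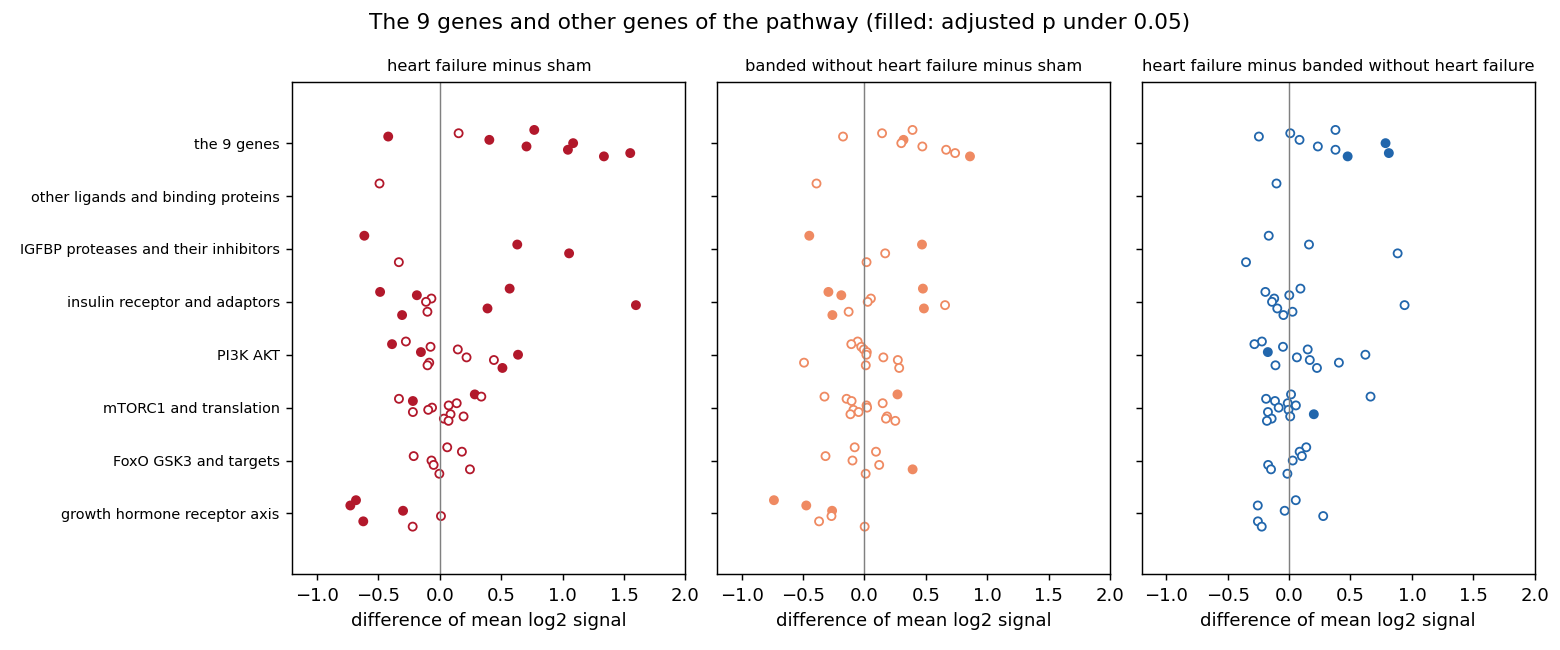
Difference of mean log2 signal of the 9 genes (top row) and the tested genes of the other lists of the axis (rows below), in panels for HF minus sham, no-HF minus sham and HF minus no-HF; filled points have an adjusted p under 0.05 and the vertical spread within a row has no meaning. The 9 genes ran from -0.42 to 1.55 for HF minus sham and the growth hormone receptor axis from -0.73 to 0.01.

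Markers of fibroblasts also rose in the banded mice. Of the binding protein genes only Igfbp7 (0.86) passed by limma in no-HF mice against sham. Igfbp4, Igfbp5 and Igfbp6 had 0.47, 0.67 and 0.74 there with an unadjusted p under 0.05, and Igfbp3 had 0.30 without it. Over all genes tested 20.4% rose in HF and 10.8% in no-HF mice against sham, and 3.83% were higher in HF than in no-HF mice. Of 9 tested fibroblast markers 7 rose in HF mice and 5 (Col15a1, Lum, Mfap5, Pdgfra and Tcf21) in no-HF mice against sham, and 3 (Dcn, Mfap5 and Pi16) were higher in HF than in no-HF mice. Their summed log2 signal was 15.05 to 15.45 in HF mice, 14.50 to 15.11 in no-HF mice and 14.30 to 14.89 in sham mice. Of 8 activated fibroblast markers 7 and 6 rose in HF and no-HF mice against sham, and 5 (Col1a1, Col1a2, Cthrc1, Lox and Postn) were higher in HF than in no-HF mice; their sum was 15.70 to 16.14 in HF mice, 14.59 to 15.68 in no-HF mice and 13.76 to 14.88 in sham mice. Within the no-HF group, mouse 1 had the highest and mouse 2 the lowest of both sums. The same 2 mice had the highest and lowest Igfbp4 and Igfbp7 by their brightest probe sets. The highest and lowest no-HF mice were 4 and 5 for Igfbp3, 3 and 5 for Igfbp5 and 7 and 2 for Igfbp6. By the second Igfbp7 probe set, no-HF mouse 3 was the highest (8.26) and no-HF mouse 5 the lowest (7.31).

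Of 10 endothelial markers 4 rose in HF mice (Esam, Pecam1, Robo4 and Tie1) and 2 in no-HF mice (Robo4 and Tie1) against sham, and Cdh5 was lower in HF than in no-HF mice (-0.37, limma adjusted p = 0.0417). Their summed log2 signal was 13.32 to 13.71 in HF mice, 13.46 to 13.76 in no-HF mice and 13.29 to 13.43 in sham mice. Of 8 smooth muscle and pericyte markers, Pdgfrb (0.39) and Tagln (0.83) rose and Abcc9 (-0.57) and Kcnj8 (-0.29) fell in HF mice against sham, and Notch3 (0.52) and Pdgfrb (0.40) rose and Abcc9 (-0.30) fell in no-HF mice. Abcc9 and Kcnj8 were also lower in HF than in no-HF mice. The sum of these 8 was 14.87 to 15.03 in HF mice, 14.95 to 15.18 in no-HF mice and 14.94 to 15.04 in sham mice. By limma 0 of 13 macrophage and leukocyte markers passed between HF and sham mice, of which 2 had an unadjusted p under 0.05. The part of these cell types and of fibroblasts in the differences of the 9 genes was not tested.

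Some genes of atrial muscle also differed between the groups, although the labels give the tissue as left ventricle without atria. Myl7, an atrial myosin light chain, was 2.30 at the lowest, 6.03 at the median and 13.89 at the highest in HF mice and 8.86, 11.85 and 13.75 in no-HF mice, against 7.53, 9.89 and 12.67 in sham mice. It was lower in HF than in no-HF mice (-4.93, limma adjusted p = 0.0457). Of the 5 atrial markers 4 were tested, with a median difference of -3.22 between HF and no-HF mice, and Bmp10 lay at the floor on all arrays. Nppa, which ventricles under load also express, rose in HF (2.18) and no-HF mice (1.92) against sham. The summed signal of the 4 was 15.42 to 16.45 in HF mice, 15.14 to 16.00 in no-HF mice and 13.17 to 14.82 in sham mice. With the Myl7 signal as a covariate, the calls of Igfbp6 (0.80, adjusted p = 0.12) and Igfbp7 (0.52, adjusted p = 0.0906) between HF and no-HF mice were lost, and the other calls of the 9 genes in the 3 comparisons were kept.

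The genes most like each member over the 19 arrays are given as descriptions, since arrays of a group share its treatment. Igfbp7 was most like Bgn (Pearson r 0.97, and 0.87 after removing group means) and Mfap4 (0.96 and 0.84), both genes of extracellular matrix proteins. Igfbp6 was most like Ccdc80 (0.95 and 0.85) and Nucb2 (0.95 and 0.83), and Igfbp4 most like Tmed3 (0.93 and 0.88) and the collagen gene Col14a1 (0.92 and 0.90). Igfbp5 was most like Sntb2 (0.94 and 0.88) and Maged1 (0.93 and 0.88), and Igfbp3 most like Esyt2 (0.92 and 0.76) and Tmem30a (0.90 and 0.71). For Igf1 the nearest were Hs2st1 (0.90 and 0.85) and Antxr1 (0.89 and 0.87), and for Igf2 Mrpl24 (0.86 and 0.80) and Rbm38 (0.79 and 0.69). Igf2r was nearest to the laminin gene Lamb2 (0.95 and 0.91) and Syt11 (0.95 and 0.93), and Igf1r to Ppp2r2d (0.89 and 0.92) and Diaph2 (0.89 and 0.90). Among the members, Igf1 and Igfbp4 had an r of 0.81 (0.70 after removing group means), Igf2r and Igfbp5 0.83 (0.67), and Igf1r and Igf2r -0.36 (-0.83). In the last pair sham mice 1 to 3 stood apart from sham mice 4 and 5 in opposite directions. The same held for Igf1r and Igfbp5, with an r of -0.18 (-0.54). The part of these mice in the r values was not tested.

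Whether the genes varied with the weight of the ventricle among mice of the same group was asked in the 14 banded mice, with heart failure as a term. No gene of the 10733 passed by limma, and 643 (5.99%) had an unadjusted p under 0.05, with a smallest adjusted p of 0.759. The slopes of the members, in log2 signal per unit of left ventricular weight over tibia length, were 0.28 ± 0.13 (SE) for Igf2, 0.26 ± 0.15 for Igfbp4, 0.27 ± 0.21 for Igfbp5, 0.25 ± 0.14 for Igfbp7 and between -0.12 and 0.08 for the other 5 (adjusted p of 0.835 or more for all 9). Igf2 was thus lower in HF mice than in sham mice while its slope within the banded groups was above 0, a slope that did not pass the test.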

How the data were processed

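RNA from the left ventricle of 19 mice (7 AB with heart failure, 7 AB without, 5 sham) was measured on Affymetrix arrays, 1 per mouse, from 3 ug of total RNA per the labels. Per the submitters' processing notes, the authors deposited log2 values from GCRMA, of a version not stated there. GCRMA draws dim probe sets to a common floor, which compresses their differences. All sample columns were used (0 left out). Of 45101 probe sets, GEO's platform annotation of the array gives 34958 exactly 1 symbol, 932 several and 9211 none. Of these, 20497 had a log2 above 4 on at least 5 arrays; 18595 of them had 1 symbol and, keeping the brightest of each gene, gave 10733 genes.

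The 3 groups entered 1 limma fit (limma 3.58.1 in R 4.3.3, by lmFit and eBayes) without covariates, and p-values were adjusted by Benjamini-Hochberg over all genes, or over all filtered probe sets where a single probe set is given. Errors are SEs of the fit unless marked SD, and intervals are 95% intervals of the fit. The code was tested on simulated data. Arrays give no sequencing depth, so the number of mice limits the precision. The numbers of the mice only name them and pair nothing.

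The text names the 9 members; in each comparison the 2 genes of each of 8 pathway lists with the largest change past the threshold; the 2 genes with the highest Pearson r to each member; and markers of 7 cell type lists where 5 or fewer passed. Htra1 and Shc1 in HF mice, Grb14, Grb2 and Sos2, and genes named with values that did not pass were chosen after their values were seen. The members and lists were chosen with earlier results of these data known. Alternatives were no filter, the mean of all probe sets of a gene, each probe set alone, quantile normalization, equal array medians, 18S array set or animal ID series as a block or alone, the actin difference as a covariate, a robust intensity trend, and leaving out each mouse. A covariate for the atrial gene Myl7, whose signal differed between the groups, and leaving out HF mouse 5 with sham mouse 3 were chosen after seeing the data. Promoter sequences and gene order are from RefSeq tables (GRCm38.p6), where all 9 members have a promoter; no build of the authors is named in the sources used here. Python 3.11.15, pandas 2.3.3 and matplotlib 3.10.9 made the tables and figures.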

Additional observations from a re-analysis of the deposited data

Results flagged for a closer look

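Igf1 in HF mouse 5 was 9.15 on the log2 scale, where the nearest other HF mouse was at 10.36; this gap was 0.679 of the range of the group, above Dixon's 95% critical value for 7 samples. Igf1 in sham mouse 3 was 10.44, where the nearest other sham mouse was at 9.58; this gap was 0.735 of the range, above the critical value for 5 samples. The test was run on 27 sets of values (9 genes in 3 groups), and chance marks about 1 in 20. HF mouse 5 also had the highest brightest-probe-set Igf1r signal of all mice, 9.18. Igfbp2, which did not pass the filter and was not tested, had a log2 signal of 6.13 in HF mouse 1, against at most 2.58 in the sham mice; it was 5.61 in no-HF mouse 3 and 4.17 in no-HF mouse 4. Of these, HF mouse 1 and no-HF mouse 4 also had the highest signals of the atrial genes Sln (12.92 and 12.10) and Myl7 (13.89 and 13.75), and a link between these values was not tested.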

How the results depend on the processing

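Counts of genes past the threshold moved most where mice were split by technical measures. On the low-18S arrays alone 2670 genes passed for HF against sham, 343 for no-HF against sham and 149 for HF against no-HF, and in animal ID series 2 and 3 alone the counts were 2034, 212 and 0; these fits have fewer mice. In series 1 alone HF against no-HF gave 2202, with the HF mice on low-18S and the no-HF mice on high-18S arrays. With the actin difference as a covariate the counts against sham were 2705 for HF and 1199 for no-HF mice. Leaving out 1 mouse at a time gave 3538 to 4388, 1185 to 2200 (lowest without sham mouse 2) and 508 to 1146 (508 without no-HF mouse 5, 599 without HF mouse 2 and 672 without no-HF mouse 6), and 0 to 0 for the slope on ventricular weight, which had 1 call with the ID series as a block. The split into higher and lower genes was 2193 and 2027 for HF against sham, 1793 and 2587 after quantile normalization and 2467 and 1778 with equal medians; for no-HF against sham it was 1164 and 701, then 902 and 926, then 1520 and 474; neither scaling turned the direction of a called member. Signs turned for differences that had not passed: Igf1r in HF against no-HF (equal medians -0.0017, ID series 1 -0.16, without HF mouse 5 and sham mouse 3 together -0.0736, leaving out 1 mouse -0.0736 to 0.0584) and in HF against sham (ID series 1 -0.11); Igf2r in HF against no-HF (18S block -0.0654, low-18S arrays -0.0335, ID series 2 and 3 -0.0347); Igfbp5 in HF against no-HF (ID series 2 and 3 -0.11). Slopes also turned, for Igf1r with probe set 1426565_at (0.0646), with the 18S block for Igf1r (0.0237), Igf2r (-0.0193) and Igfbp6 (0.0038), and on leaving out 1 mouse for Igf1 (-0.0563 to 0.25), Igf1r (-0.0677 to 0.0439), Igf2r (-0.0125 to 0.048) and Igfbp6 (-0.25 to 0.0842). The cause of these changes was not tested, and within ID series 1 HF mice and array set cannot be told apart. Igfbp6 and Igfbp7 passed for HF against sham in every alternative run (13 and 14 of them) and on leaving out any 1 mouse; for HF against no-HF they lost the call in 5 of 13 and 7 of 14 alternatives, with an adjusted p of 0.12 and 0.0906 under the Myl7 covariate and of 0.0557 and 0.0602 when adjusted over all probe sets. No paired analysis was possible because the labels give no replicate numbers shared between groups. The 5 to 7 mice per group, and dim probe sets near the floor, limit what could pass.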
